A study of Homo sapiens with 12 samples.

Results

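Polycomb repressive complex genes were followed in the QGP-1 and BON-1 lines, both grown from human neuroendocrine tumors of the pancreas and long established in culture. The set holds 10 genes chosen by name (EZH2, EZH1, EED, SUZ12, JARID2, RBBP4, RBBP7, RNF2, BMI1 and CBX2), and all 10 have a row among the 28008 genes of the deposited count tables. All cells carried tet-MUC1shRNA, a hairpin directed at MUC1 RNA that is made only when doxycycline (DOX) is added. In each line, 3 cultures received 0.1% DMSO as vehicle and 3 received 500 ng/mL DOX for 7 days, which gave 12 libraries in 4 groups. No library of control-hairpin cells treated with DOX was analysed here, so effects of the drug and of the hairpin cannot be told apart. The lines were grown in different media, so line and medium cannot be told apart in any comparison between them. The QGP-1 libraries held 38224144 to 50525926 counts and the BON-1 libraries 15981954 to 28484324. All 15 neuroendocrine markers examined, CHGA, CHGB, SYP and INSM1 among them, had counts in all 4 groups, although NCAM1 had at most 2 counts in a BON-1 library.

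Polycomb proteins keep developmental genes silent by modifying histones. Polycomb repressive complex 2 (PRC2) methylates histone H3 on the lysine known as H3K27, and Polycomb repressive complex 1 (PRC1) attaches ubiquitin to histone H2A and compacts chromatin. EZH2 and its paralogue EZH1 are the alternative methyltransferases of PRC2, EED and SUZ12 are the core subunits that make the enzyme active, and JARID2 is an accessory subunit that helps PRC2 find and keep its sites. RBBP4 and RBBP7 are histone-binding proteins that PRC2 shares with the NuRD and SIN3 deacetylase complexes and, for RBBP4, with the chromatin assembly factor CAF-1. In PRC1, RNF2 (RING1B) is the ubiquitin ligase, BMI1 (PCGF4) is its partner, and CBX2 is a chromodomain subunit that reads methylated H3K27. In many tumors EZH2 rises and falls with the rate of cell division, and the paper behind these data counts both complexes among the targets of MUC1-C in other cancers. The comparison of DOX with vehicle asks how the transcripts of these genes differed once MUC1 was lowered.

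MUC1 itself was checked first, since the hairpin is directed against it. In QGP-1 cells MUC1 had 274, 251 and 281 counts with vehicle and 34, 41 and 32 with DOX. In BON-1 cells it had 580, 467 and 281 counts with vehicle and 23, 51 and 78 with DOX. The log2 fold change was -2.91 ± 0.23 (SE, n = 3 per group, edgeR adjusted p = 8.24e-07) in QGP-1 and -2.79 ± 0.22 (adjusted p = 6.51e-11) in BON-1, and every DOX library lay below every vehicle library of its line.

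Of the 10 Polycomb genes, 5 were called in at least 1 line. Over the 13535 genes tested in both lines, 38.4% were called in 1 line only. A further 14.1% were called in the same direction in both lines and 2.69% in opposite directions. JARID2 was the member called higher in both lines. CBX2 was called higher in QGP-1 and lower in BON-1. In BON-1 EZH1 was also called higher and RBBP4 and BMI1 lower, although the difference between the lines was not called for RBBP4 or BMI1. EZH2, EED, SUZ12, RBBP7 and RNF2 were not called in either line. Levels are given as CPM, counts relative to the TMM-scaled library size within a line, and a gene was called at an edgeR quasi-likelihood adjusted p below 0.05 with no minimum fold.

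In QGP-1, 2 of the 10 members were called higher, where 17.3% of the 15089 genes tested were higher. By the same test 0 members were called lower, where 17.7% of all genes were lower. At an unadjusted p below 0.05, 2 members were lower, with no share of all genes at that threshold to set beside them. DESeq2 also called 0 members lower and 2 higher, beside 2769 lower and 2755 higher of the 15089 genes. In BON-1, 3 members were called lower beside 18.3% of the 14625 genes tested, and 2 higher beside 17% of them. The ranges of vehicle and DOX libraries did not overlap for 5 members in QGP-1 and for 5 in BON-1, beside 46.7% and 46.3% of all genes tested. The median log2 fold change of the members was -0.000929 in QGP-1 and 0.04 in BON-1, and over all genes it was -0.01 in both. In bulk RNA such as this, fewer cells that make a transcript and less transcript per cell cannot be told apart.

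**Figure D1:**
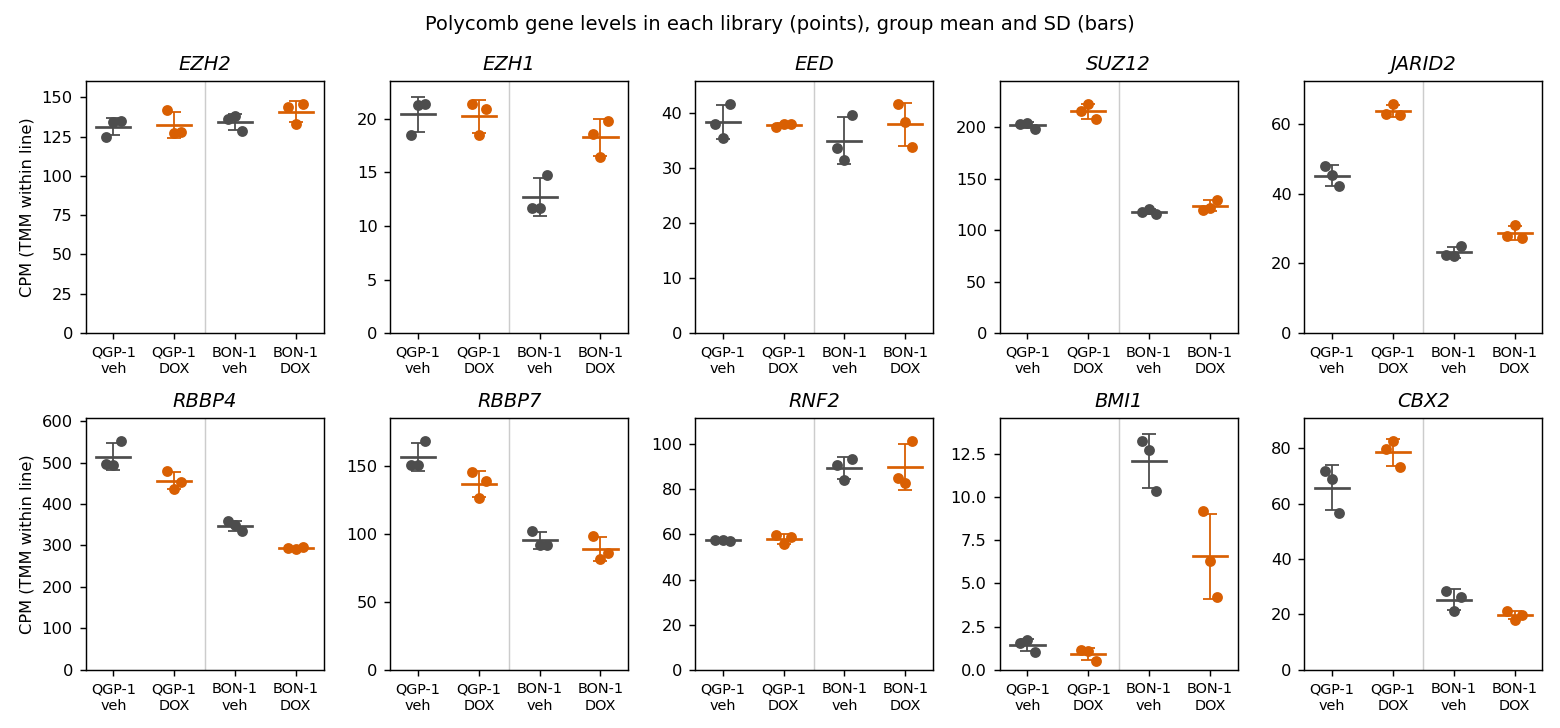
Levels of the 10 genes in each of the 12 libraries (points), in CPM scaled by TMM within a line, on linear axes from 0, with the mean and SD of the 3 libraries of each group (bars), vehicle in grey and DOX in orange. JARID2 lies higher with DOX in every library of both lines, EZH1 is higher with DOX in BON-1, BMI1 stays under 2 CPM in QGP-1, and EZH2 lies between 125 and 146 CPM throughout.

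EZH2, the main methyltransferase of PRC2 in dividing cells, was not called in either line. Its level in QGP-1 was 125, 134 and 135 CPM with vehicle and 142, 127 and 128 with DOX. In BON-1 it was 136, 138 and 129 CPM with vehicle and 144, 133 and 146 with DOX. The groups overlapped in both lines. DOX minus vehicle was 0.01 ± 0.07 on the log2 scale in QGP-1 (SE, adjusted p = 0.919), with a 95% interval from -0.13 to 0.15, and 0.07 ± 0.08 in BON-1 (adjusted p = 0.510), with an interval from -0.08 to 0.22. Among 24 proliferation genes measured beside it, 11 were lower in QGP-1 and 12 in BON-1, beside 17.7% and 18.3% of all genes, with median log2 fold changes of -0.21 and -0.25 beside -0.01 over all genes in both lines. E2F1, a transcription factor of S phase entry, fell by 0.52 on the log2 scale in QGP-1 (adjusted p = 0.000573) and had -0.05 in BON-1. PCNA, the sliding clamp of DNA replication, fell by 0.44 in QGP-1 (adjusted p = 0.000430) and had -0.13 in BON-1. The mitotic cyclin CCNA2 had -0.11 in QGP-1 and fell by 0.32 in BON-1 (adjusted p = 0.00149), and MKI67, which encodes the Ki-67 antigen, rose by 0.43 in QGP-1 (adjusted p = 0.0160) and had -0.04 in BON-1. What part the share of dividing cells had in the Polycomb values was not tested.

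EZH1, the methyltransferase that prevails in resting cells, was called in BON-1 and not in QGP-1. In QGP-1 it stood at 18.5, 21.3 and 21.4 CPM with vehicle and 21.4, 18.5 and 20.9 with DOX, and the groups overlapped. In BON-1 it stood at 11.6, 11.7 and 14.7 CPM with vehicle and 18.6, 16.4 and 19.8 with DOX, so every DOX library lay above every vehicle library. On the log2 scale DOX minus vehicle was -0.01 ± 0.10 in QGP-1 (SE, adjusted p = 0.936) and 0.53 ± 0.14 in BON-1 (adjusted p = 0.00361), a rise of 44.9%. The BON-1 call held in each of the 6 fits that left out 1 library, with values from 0.45 to 0.64. The responses differed by 0.56 ± 0.17 between the lines (BON-1 minus QGP-1, interaction in 1 fit of 12 libraries, adjusted p = 0.0285). That difference was called in 5 of the 12 fits without 1 library and was lost with library size in place of TMM (0.49, adjusted p = 0.0566).

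The ratio of the paralogues was compared within each library. Per length, from TPM, the EZH2 transcript was 17.1 times as abundant as EZH1 in BON-1 vehicle libraries and 12.4 times with DOX. The groups did not overlap, and the exact permutation test over the 6 libraries gave p = 0.1, the smallest value that 3 libraries against 3 allow. In QGP-1 the same ratio was 10.3 with vehicle and 10.5 with DOX, with overlapping groups (exact permutation p = 0.9).

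EED and SUZ12, the core partners of the methyltransferases, were called in neither line. EED ranged from 35.4 to 41.7 CPM with vehicle and from 37.4 to 38.0 with DOX in QGP-1, and from 31.5 to 39.7 and from 33.8 to 41.7 in BON-1, all overlapping. SUZ12 was at 204, 204 and 199 CPM with vehicle and 216, 223 and 208 with DOX in QGP-1, which did not overlap. In BON-1 SUZ12 was at 118, 120 and 116 CPM with vehicle and 120, 122 and 130 with DOX. The SUZ12 difference was small in both lines, 0.09 ± 0.06 in QGP-1 (SE, adjusted p = 0.266) and 0.07 ± 0.08 in BON-1 (adjusted p = 0.510). Reads of SUZ12 can match SUZ12P1, a transcribed pseudogene on the same chromosome with 215 to 1276 counts per library, and how such reads were counted is not given in the sources used here.

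Start regions of these genes were read from the RefSeq promoter table (GRCh38.p14), which covers 250 bases before and 50 bases from each annotated start and matched 9 of the 10 members with 14 windows. CBX2 has no entry there. An E2F-type sequence (TTTCCCGC, TTTGGCGC, TTTCGCGC or TTTGCCGC, either strand) was in a window of 3 members, EZH2, EZH1 and SUZ12, and in 3.31% of the 35116 windows of that table. A canonical E-box (CACGTG, which reads the same on both strands) was in a window of 2 members, RBBP4 and BMI1, and in 7.26% of all windows. The members are counted by gene and the shares by window, so the units are not alike. No matched stretches overlapped one another. The member windows held 16 to 65 CpG dinucleotides beside a median of 14 over all windows, and 5 members had a second window. The windows of the 3 PRC2 genes with an E2F-type match are printed 5′ to 3′ on the gene's strand with the match in capitals. Whether the match has a part in the DOX values of these genes was not tested.
EZH2, chr7:148884242-148884541, minus strand: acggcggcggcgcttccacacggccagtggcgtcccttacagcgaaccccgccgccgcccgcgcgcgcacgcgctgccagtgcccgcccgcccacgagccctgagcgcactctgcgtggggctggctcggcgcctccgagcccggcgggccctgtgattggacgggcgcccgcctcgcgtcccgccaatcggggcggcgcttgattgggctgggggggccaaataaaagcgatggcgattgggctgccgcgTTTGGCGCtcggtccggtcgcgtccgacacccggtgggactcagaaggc
SUZ12, chr17:31936757-31937056, plus strand: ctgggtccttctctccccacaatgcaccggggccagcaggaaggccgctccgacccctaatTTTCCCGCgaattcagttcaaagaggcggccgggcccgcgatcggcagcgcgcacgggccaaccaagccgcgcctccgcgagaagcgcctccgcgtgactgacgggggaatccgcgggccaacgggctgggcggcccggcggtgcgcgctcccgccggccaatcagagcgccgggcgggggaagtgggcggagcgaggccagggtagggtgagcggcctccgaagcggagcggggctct
EZH1, chr17:42744991-42745290, minus strand: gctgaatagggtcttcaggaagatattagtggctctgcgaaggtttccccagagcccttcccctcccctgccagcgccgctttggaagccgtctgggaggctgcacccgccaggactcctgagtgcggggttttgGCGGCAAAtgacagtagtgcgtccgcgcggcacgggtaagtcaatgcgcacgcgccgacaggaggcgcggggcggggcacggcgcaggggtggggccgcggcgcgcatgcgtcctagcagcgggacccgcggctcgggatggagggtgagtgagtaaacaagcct
The match begins 1 base after the start in EZH2, 189 bases before it in SUZ12 and 115 bases before it in EZH1. These are letters in a window, and no binding was measured here.

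JARID2 was the member that rose in both lines. In QGP-1 it stood at 48.0, 45.4 and 42.1 CPM with vehicle and 63.0, 65.8 and 62.5 with DOX. In BON-1 it stood at 22.4, 22.1 and 24.9 CPM with vehicle and 27.9, 30.9 and 27.3 with DOX. No DOX library of either line reached down to a vehicle library. JARID2 thus had a log2 fold change of 0.50 ± 0.08 in QGP-1 (SE, adjusted p = 0.000288), a rise of 41.1%, and 0.31 ± 0.11 in BON-1 (adjusted p = 0.0263), a rise of 24.4%. The QGP-1 call held in each of the 6 fits without 1 library, from 0.45 to 0.54. The BON-1 call was lost without vehicle replicate 1 (0.29, adjusted p = 0.0786), vehicle replicate 2 (0.27, adjusted p = 0.115) or DOX replicate 2 (0.25, adjusted p = 0.125), and with library size in place of TMM (0.27, adjusted p = 0.0585). The difference of the responses was -0.17 ± 0.13 (adjusted p = 0.396), with a 95% interval from -0.42 to 0.08. An antisense gene, JARID2-AS1, with at most 8 counts in a library, overlaps JARID2, and whether counting used the strand is not given in the sources used here.

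RBBP4 and RBBP7, the histone-binding subunits, were measured at the highest levels of the set per length in QGP-1, and RBBP4 fell in BON-1. RBBP4 stood at 496, 494 and 553 CPM with vehicle and 479, 437 and 454 with DOX in QGP-1. In BON-1 RBBP4 stood at 360, 349 and 335 CPM with vehicle and 295, 291 and 297 with DOX. The groups did not overlap in either line. The log2 fold change of RBBP4 was -0.17 ± 0.07 in QGP-1 (SE, adjusted p = 0.0675) and -0.24 ± 0.07 in BON-1 (adjusted p = 0.0102), a fall to 0.845 of the vehicle level. The BON-1 call held in each of the 6 fits without 1 library. The RBBP4 responses differed by -0.06 ± 0.10 (BON-1 minus QGP-1, SE, adjusted p = 0.749), so the lines were not shown to differ.

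For RBBP7 the QGP-1 levels were 151, 151 and 169 CPM with vehicle and 145, 126 and 139 with DOX, without overlap. Its BON-1 levels were 102, 91.4 and 91.6 CPM with vehicle and 98.6, 81.5 and 86.1 with DOX, and these overlapped. The log2 fold change of RBBP7 was -0.20 ± 0.08 in QGP-1 (SE, adjusted p = 0.0573) and -0.10 ± 0.09 in BON-1 (adjusted p = 0.373). Without DOX replicate 1 both genes were called lower in QGP-1, RBBP4 at -0.20 (adjusted p = 0.0469) and RBBP7 at -0.23 (adjusted p = 0.0341). On the opposite strand RBBP4 overlaps SYNC, which had at most 17 counts in a library, and RBBP7 overlaps TXLNG, which had 627 to 3429. TXLNG moved the other way, at 0.44 ± 0.09 in QGP-1 (SE, adjusted p = 0.00129) and 0.23 ± 0.10 in BON-1 (adjusted p = 0.0601). RBBP4 also has 7 annotated pseudogenes, none of them a row of the count tables.

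RNF2, the ubiquitin ligase of PRC1, did not differ between vehicle and DOX beyond the spread of the libraries. Its QGP-1 levels were 57.7, 57.7 and 56.9 CPM with vehicle and 59.7, 55.6 and 59.0 with DOX. Its BON-1 levels were 90.6, 84.2 and 93.5 CPM with vehicle and 85.1, 82.7 and 102 with DOX. DOX minus vehicle was 0.02 ± 0.07 on the log2 scale in QGP-1 (SE, adjusted p = 0.881), with a 95% interval from -0.13 to 0.16. It was 0.01 ± 0.09 in BON-1 (adjusted p = 0.957), with an interval from -0.16 to 0.18.

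BMI1, the RING partner of RNF2, had few counts in QGP-1 and fell in BON-1. In QGP-1 it had 58, 75 and 51 counts with vehicle and 54, 42 and 21 with DOX, or 1.52, 1.74 and 1.02 CPM against 1.12, 1.06 and 0.488. In BON-1 it had 374, 287 and 186 counts with vehicle and 143, 121 and 83 with DOX, or 13.3, 12.7 and 10.3 CPM against 9.18, 6.29 and 4.22. The BON-1 groups did not overlap and the QGP-1 groups did. BMI1 thus had a log2 fold change of -0.90 ± 0.20 in BON-1 (SE, adjusted p = 0.000915), a fall to 0.535 of the vehicle level, and -0.67 ± 0.38 in QGP-1 (adjusted p = 0.192). The responses differed by -0.23 ± 0.41 (adjusted p = 0.771), an interval from -1.03 to 0.58, so the lines were not shown to differ. The BON-1 call held in each of the 6 fits without 1 library, from -1.22 to -0.68, but missed the threshold on centred TPM (-0.57, adjusted p = 0.0565).

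The BMI1 counts carry an uncertainty of their own. The gene (chr10:22321099-22331484, GRCh38, plus strand) overlaps COMMD3-BMI1 (chr10:22316388-22329542, plus strand), a readthrough that joins it to its upstream neighbour COMMD3, and runs past its end, so that part of BMI1 is not shared with it. COMMD3-BMI1 has 0 counts in each of the 12 libraries, and reads in exons that the readthrough shares with BMI1 or COMMD3 may have gone to either gene or to neither. COMMD3, looked at for this reason after the BMI1 values were known, rose in BON-1 from 16.4 ± 1.88 to 28.8 ± 4.84 CPM (SD, n = 3), a log2 fold change of 0.81 ± 0.13 (SE, adjusted p = 1.5e-05). In QGP-1 COMMD3 went from 5.44 ± 0.40 to 4.40 ± 0.87 CPM (adjusted p = 0.206). In BON-1 the neighbouring genes thus moved in opposite directions. PCGF2, the closest paralogue of BMI1, was more abundant than BMI1 per length in both lines. The ratio of BMI1 to PCGF2, from TPM, was 0.0332 with vehicle and 0.0214 with DOX in QGP-1, and 0.269 and 0.152 in BON-1, where the groups did not overlap (exact permutation p = 0.1, the smallest possible).

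CBX2, the chromodomain subunit, was called in opposite directions. In QGP-1 it stood at 71.9, 69.0 and 56.6 CPM with vehicle and 79.6, 82.8 and 73.2 with DOX. In BON-1 it stood at 28.4, 21.3 and 26.4 CPM with vehicle and 21.2, 18.1 and 19.7 with DOX. Neither pair of groups overlapped, although the nearest libraries were close. The log2 fold change was 0.26 ± 0.09 in QGP-1 (SE, adjusted p = 0.0446) and -0.37 ± 0.12 in BON-1 (adjusted p = 0.0208). The difference of the responses was -0.62 ± 0.16 (BON-1 minus QGP-1, adjusted p = 0.00770).

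The CBX2 calls within each line were lost in several fits with fewer libraries, although some of the values hardly moved. The QGP-1 value was no longer called without vehicle replicate 2 (0.29, adjusted p = 0.0738), vehicle replicate 3 (0.16, adjusted p = 0.162), DOX replicate 1 (0.26, adjusted p = 0.0642) or DOX replicate 2 (0.22, adjusted p = 0.137). The BON-1 value was no longer called without vehicle replicate 1 (-0.28, adjusted p = 0.132), vehicle replicate 3 (-0.35, adjusted p = 0.0648) or DOX replicate 2 (-0.32, adjusted p = 0.0739), nor on centred TPM (-0.23, adjusted p = 0.152). The difference between the lines was called in each of the 12 fits without 1 library, from -0.75 to -0.52. CBX2 (chr17:79778148-79787983, GRCh38, plus strand) neighbours its paralogue CBX8. The ratio of CBX2 to CBX8, from TPM, was 4.14 with vehicle and 5.66 with DOX in QGP-1 without overlap (exact permutation p = 0.1). In BON-1, where CBX8 had 8 to 66 counts, the ratio was 3.53 and 5.36 with overlapping groups (exact permutation p = 0.6).

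**Figure D2:**
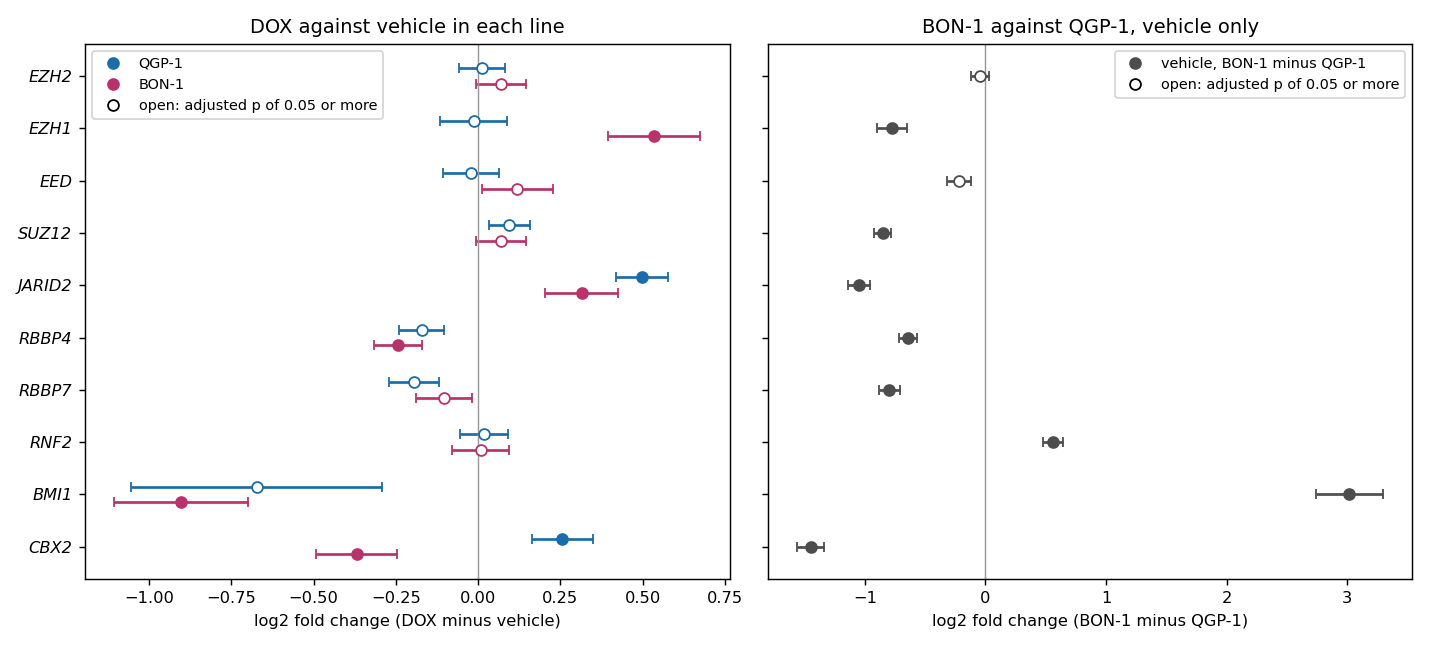
Log2 fold changes of the 10 genes with their SE (bars), on the left for DOX against vehicle in QGP-1 (blue) and BON-1 (magenta) and on the right for BON-1 against QGP-1 in vehicle libraries. Open points had an adjusted p of 0.05 or more. JARID2 lies to the right in both lines (0.50 and 0.31), CBX2 on opposite sides (0.26 and -0.37), and BMI1 is 3.02 higher in BON-1 than in QGP-1.

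Tested over the 12 libraries, the DOX response was called different between the lines for 1 member in each direction, EZH1 higher and CBX2 lower in BON-1. Over the 16598 genes of that fit, 8.8% were called higher and 7.92% lower. The EZH1 difference was lost without QGP-1 vehicle replicate 2 (0.53, adjusted p = 0.0676), QGP-1 vehicle replicate 3 (0.52, adjusted p = 0.0628) or QGP-1 DOX replicate 2 (0.50, adjusted p = 0.0824). It was also lost without BON-1 vehicle replicate 1 (0.48, adjusted p = 0.0946), BON-1 vehicle replicate 2 (0.49, adjusted p = 0.0903), BON-1 DOX replicate 1 (0.53, adjusted p = 0.0685) or BON-1 DOX replicate 3 (0.48, adjusted p = 0.0828).

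Before any DOX was given, most members differed between the lines, as did most of the genes tested. Line, medium and any difference in sequencing cannot be told apart here. In vehicle libraries scaled together, 6 members were called lower and 2 higher in BON-1 than in QGP-1, where 37.5% of all genes were called lower and 37.5% higher. The ranges did not overlap for 8 members, beside 77.6% of all genes. The median over the members was -0.71, and over all genes it was 0.02.

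EZH2 was not called between the lines, at 135 ± 5.75 CPM in QGP-1 and 130 ± 6.04 in BON-1 (SD, n = 3, log2 difference -0.05, adjusted p = 0.577), with a 95% interval of the difference from -0.19 to 0.10. EED was not called either, at 39.3 ± 3.25 and 33.9 ± 3.84 CPM (log2 difference -0.22, adjusted p = 0.0543), but it was called without QGP-1 vehicle replicate 2 (-0.27, adjusted p = 0.0344), BON-1 vehicle replicate 3 (-0.32, adjusted p = 0.0139) or BON-1 DOX replicate 3 (-0.23, adjusted p = 0.0405). SUZ12 was lower in BON-1, at 115 ± 3.28 against 207 ± 2.92 CPM. The remaining PRC2 genes were lower there too, with log2 differences of -0.77 for EZH1, -1.05 for JARID2, -0.64 for RBBP4 and -0.80 for RBBP7, with adjusted p between 1.86e-10 and 4.81e-06.

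The PRC1 genes split. BMI1 was 3.02 ± 0.28 higher in BON-1 on the log2 scale (SE, adjusted p = 5.46e-10), at 11.8 ± 1.63 against 1.46 ± 0.373 CPM (SD, n = 3). RNF2 was 0.56 ± 0.09 higher (adjusted p = 2.32e-06). CBX2 was lower, at 24.7 ± 3.65 against 67.5 ± 8.33 CPM (log2 difference -1.45 ± 0.11, adjusted p = 1.18e-11). These 8 calls held in all 21 alternatives run on this comparison, although the BMI1 value was 0.75 on centred log2(TPM + 1) and lay between 2.82 and 3.19 in the others.

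How the 10 transcripts compare with each other was read per length, as shares of their summed TPM. In QGP-1 vehicle libraries RBBP7 held 25.1 ± 0.903% (SD, n = 3), RBBP4 22.3 ± 0.784%, SUZ12 16.1 ± 0.692% and EZH2 16.0 ± 0.543%. RNF2, EED and CBX2 followed with 5.90%, 5.72% and 4.69%, then JARID2 with 2.56%, EZH1 with 1.55% and BMI1 with 0.153%. In that order the ranges of SUZ12 and EZH2 and those of RNF2 and EED overlapped, and the other neighbours did not.

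In BON-1 vehicle libraries EZH2 came first with 21.6 ± 0.885%, and its range overlapped that of RBBP7 at 20.1%, which in turn overlapped RBBP4 at 19.9%. SUZ12 held 12.4% and RNF2 12.1%, with overlapping ranges, EED 6.89% and CBX2 2.38%. At the bottom JARID2 with 1.73%, BMI1 with 1.70 ± 0.203% and EZH1 with 1.27% each overlapped the next. With DOX the BON-1 share of BMI1 was 0.945 ± 0.344% and that of EZH1 1.88 ± 0.123%, so BMI1 became the last of the 10 and its range no longer reached that of EZH1. In QGP-1 the share of JARID2 went from 2.56 ± 0.235% to 3.70 ± 0.200%.

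**Figure D3:**
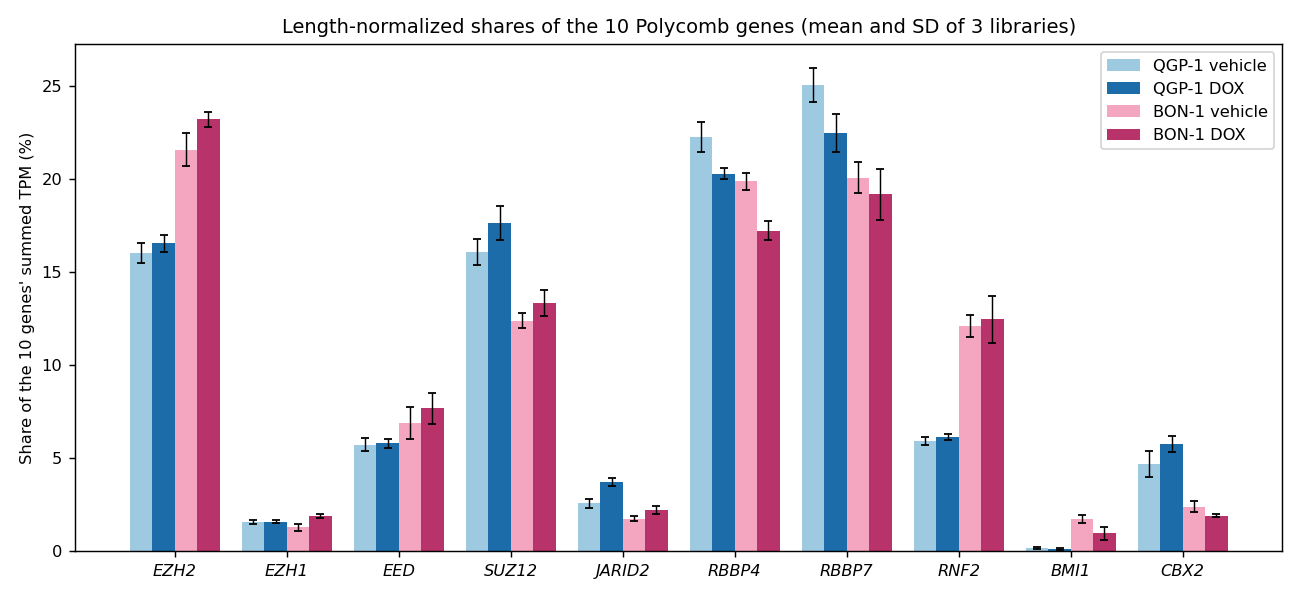
Share of each gene in the summed TPM of the 10 genes, in percent, for the 4 groups (bars, mean of 3 libraries, error bars SD). RBBP7 leads in QGP-1 vehicle libraries with 25.1% and EZH2 in BON-1 vehicle libraries with 21.6%, and BMI1 holds 0.153% in QGP-1 vehicle against 1.70% in BON-1 vehicle.

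Genes that work with these members were counted from lists written by hand. Of 46 other PRC1, PRC2, PR-DUB and H3K27 demethylase genes, all 46 passed the filter on low counts in QGP-1, where 2 were called lower and 13 higher beside 17.7% and 17.3% of all genes tested, with a median log2 fold change of 0.10. In BON-1, 45 passed, 9 were lower and 8 higher beside 18.3% and 17% of all genes, with a median of -0.09. In the test of the difference between lines, 10 of the 46 were lower and 3 higher in BON-1 beside 7.92% and 8.8% of all genes, with a median of -0.18 beside -0.00226 over all genes. Across the lines 3 of these genes were called in the same direction, 2 in opposite directions and 22 in 1 line. Over the 13535 genes tested in both lines, these shares were 14.1%, 2.69% and 38.4%. The counts of the shorter lists and of the target genes that follow stand beside the same shares of all genes.

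The 3 that rose in both lines sit in different complexes. ASXL3, an ASXL subunit of the histone H2A deubiquitinase PR-DUB, rose by 0.55 in QGP-1 (log2, adjusted p = 5.54e-05) and 0.65 in BON-1 (adjusted p = 2.08e-05). LCOR, a locus that also encodes the PRC2 partner PALI1, rose by 0.54 (adjusted p = 5.63e-05) and 0.28 (adjusted p = 0.00479). PCGF3, a RING partner in variant PRC1, rose by 0.19 (adjusted p = 0.0396) and 0.24 (adjusted p = 0.0158). The genes called in opposite directions were PCGF5, which works like PCGF3, at -0.27 in QGP-1 and 0.24 in BON-1, and PHC1, a polyhomeotic subunit of canonical PRC1, at 0.31 and -0.39. The difference between the lines was called for both, at 0.52 for PCGF5 (adjusted p = 0.00366) and -0.69 for PHC1 (adjusted p = 0.000497).

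Within the PRC2 accessory list, 2 of 7 genes were higher in QGP-1, and in BON-1 3 were lower and 1 higher. EPOP, which links PRC2 with elongin, fell by 0.99 in BON-1 (log2, adjusted p = 0.000775) and had -0.03 in QGP-1. Its counts in BON-1 were low, at 113 to 221 in a library with vehicle and 43 to 81 with DOX. Of the 6 RING1 and PCGF genes, 2 were lower and 1 higher in QGP-1 and 2 were higher in BON-1. PCGF1, the RING partner of the BCOR-containing PRC1, fell by 0.45 in QGP-1 (adjusted p = 0.0190) and had 0.07 in BON-1. Of the 10 canonical PRC1 genes, 2 were higher in QGP-1, and 3 were lower and 1 higher in BON-1, where SCML1, a sex-comb-on-midleg-like gene, rose by 0.57 (adjusted p = 1.87e-05).

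Variant PRC1 contains RYBP or YAF2 in place of a CBX protein. Of its 11 genes, 4 were higher in QGP-1, led by RYBP at 0.42 (log2, adjusted p = 0.000944). Of the 10 tested in BON-1, 2 were higher, led by YAF2 at 0.68 (adjusted p = 1.44e-06), and 1 was lower. RYBP had 0.08 in BON-1 and YAF2 -0.01 in QGP-1, and the difference between the lines was called for each (-0.33, adjusted p = 0.0399, and 0.70, adjusted p = 0.000821). Of the 10 PR-DUB genes, 3 were higher in QGP-1, and 2 were lower and 2 higher in BON-1. KDM6B, which removes methyl groups from H3K27, rose by 0.49 in QGP-1 (adjusted p = 0.000428) and had 0.04 in BON-1, a difference of -0.44 (adjusted p = 0.0103).

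**Figure D4:**
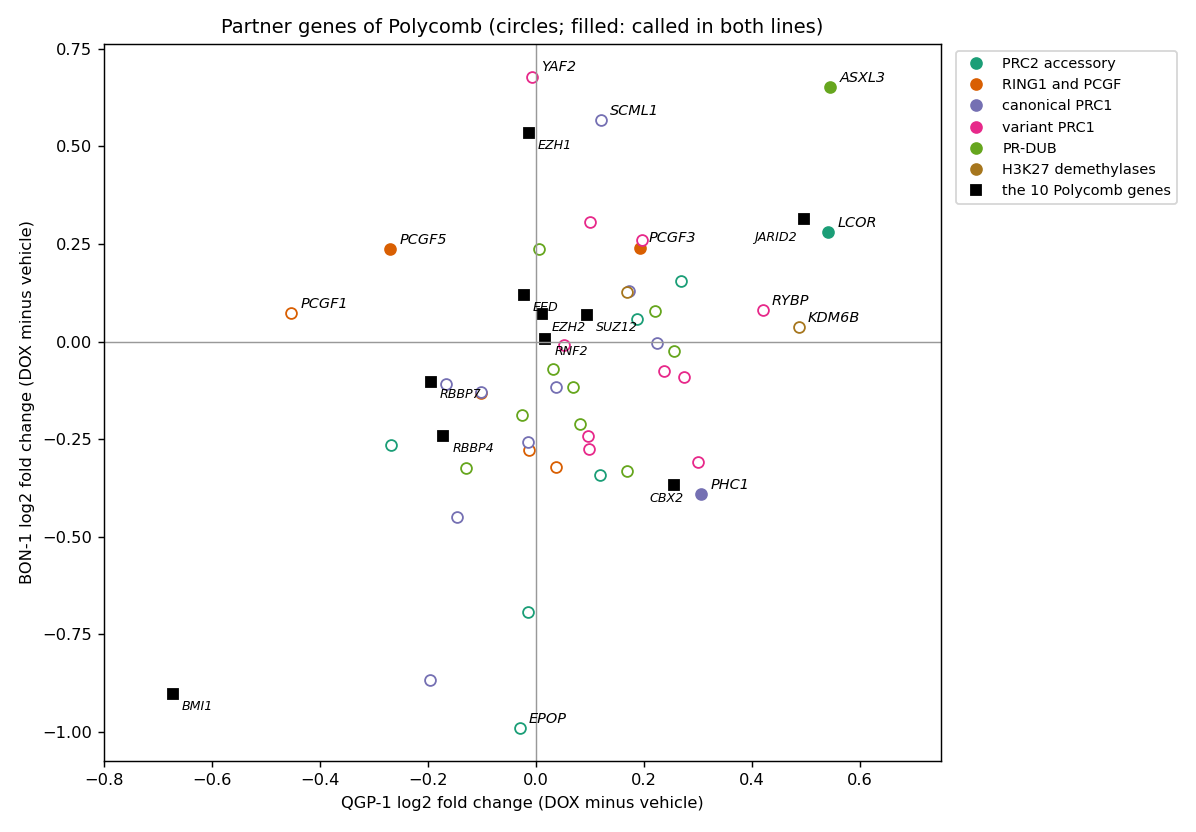
Log2 fold change with DOX in QGP-1 (x axis) and in BON-1 (y axis) for the partner genes tested in both lines (circles, coloured by complex, filled where called in both lines) and for the 10 Polycomb genes (black squares). JARID2 and LCOR lie close together at the right (0.50 and 0.54 in QGP-1), CBX2 and PHC1 lie together below (-0.37 and -0.39 in BON-1), and EPOP is lowest at -0.99 in BON-1.

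The other complexes that contain RBBP4 and RBBP7 were counted in the same way. Of 13 NuRD genes, 3 were lower and 4 higher in QGP-1, and 3 were lower and 2 higher in BON-1. MTA3 fell in both lines (-0.44, adjusted p = 0.00187, and -0.26, adjusted p = 0.0323), and MBD2, a reader of methylated DNA, rose in both (0.28, adjusted p = 0.00955, and 0.49, adjusted p = 6.41e-05). CDK2AP1 fell by 0.39 in QGP-1 and rose by 0.24 in BON-1, with a difference of 0.65 (adjusted p = 0.000358). CHD5, a remodeler, rose by 0.50 in QGP-1 (adjusted p = 0.0209), and MBD3 fell by 0.62 in BON-1 (adjusted p = 0.000362).

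Of 10 SIN3 genes, 1 was higher in QGP-1, and 1 was lower and 2 higher in BON-1. SUDS3 rose in both lines (0.40, adjusted p = 0.00105, and 0.25, adjusted p = 0.0161), and ING1 fell by 0.37 in BON-1 (adjusted p = 0.0340). CHAF1B, which forms CAF-1 with RBBP4, fell in both lines, by 0.62 in QGP-1 (adjusted p = 0.000215) and by 0.65 in BON-1 (adjusted p = 3.22e-05). CHAF1B is needed where DNA is replicated.

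HOX genes are classical Polycomb targets. Of 39 in the tables, 31 passed the filter in QGP-1, with 3 lower and 5 higher, and 30 in BON-1, with 3 lower and 6 higher. HOXB2 rose in both lines, from 189 ± 12.1 to 325 ± 12.2 CPM in QGP-1 (SD, n = 3, log2 0.78, adjusted p = 2.34e-06) and from 20.4 ± 0.654 to 31.1 ± 1.87 in BON-1 (log2 0.60, adjusted p = 7.05e-05). HOXB9 and HOXB8 rose in QGP-1 (0.55 and 0.32) and fell in BON-1 (-0.66 and -0.34), and the difference was called for both (-1.20, adjusted p = 9.9e-06, and -0.66, adjusted p = 0.00134). HOXC8 rose by 0.68 in BON-1 (adjusted p = 0.0331). HOXB5, HOXB6 and HOXB7 fell in QGP-1 (-0.34, -0.32 and -0.57) and had -0.02, 0.03 and -0.28 in BON-1. Genes of the HOXB cluster thus moved in both directions within each line.

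The CDK inhibitor genes CDKN2A and CDKN2B, another classical Polycomb target, were at 0 counts in all 6 BON-1 libraries. In QGP-1 CDKN2A had 2722 to 4137 counts with vehicle and 2438 to 4820 with DOX, and CDKN2B had 1472 to 1628 and 2376 to 3170. With a floor of 3 counts per library, the QGP-1 vehicle level was at least 318-fold higher than BON-1 for CDKN2A and at least 172-fold higher for CDKN2B. Whether the genes are present in BON-1 DNA was not tested. In QGP-1 CDKN2B rose by 0.80 with DOX (log2, adjusted p = 3.68e-05), while CDKN2A had 0.08 (adjusted p = 0.666). CDKN1C, an imprinted inhibitor, fell by 1.26 in QGP-1 (adjusted p = 0.000336), from 4.76 ± 0.320 to 1.98 ± 0.388 CPM (SD, n = 3). CDKN1A, which encodes p21, rose by 0.24 in BON-1 (adjusted p = 0.0410).

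Genes whose pattern was most like that of a member were named by Pearson's correlation of log2 CPM, centred on each line's mean, over the 12 libraries and 13534 genes, as a description. For EZH2 these were ARL16 (0.927), RWDD4 (0.891) and ZCCHC7 (0.878). For EZH1 they were TMEM196 (0.966), GTF2H1 (0.956) and EEF1E1 (0.954), and for BMI1 SUV39H1 (0.974), RGL2 (0.953) and PIH1D1 (0.948). The 12 points of each correlation share their 4 groups, so a common response to DOX enters each value.

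Markers of the lines' own cell type and of other cell types were summed in each library. The summed level of the 15 neuroendocrine markers was 7205 to 8066 CPM with vehicle and 8110 to 8874 with DOX in QGP-1, and 12772 to 16310 and 10484 to 10964 in BON-1. Among these, CHGB rose in QGP-1 (0.39, adjusted p = 0.000731) and had 0.14 in BON-1, and CHGA fell in BON-1 (-1.46, adjusted p = 2.45e-11) and had 0.15 in QGP-1. SYP fell in BON-1 (-0.34, adjusted p = 0.0192) and had 0.18 in QGP-1, and INSM1 had 0.13 and -0.05. Over the whole list, 2 of 15 markers tested were lower and 5 higher in QGP-1, beside 17.7% and 17.3% of all genes. In BON-1, 4 of 14 were lower and 3 higher, beside 18.3% and 17% of all genes. The 2 lower in QGP-1 were NCAM1 (-0.51) and UCHL1 (-0.56), and the 3 higher in BON-1 were SCG2 (0.45), SCG3 (0.27) and SCGN (0.21). The mean CHGA level in BON-1 went from 8104 ± 1428 to 2936 ± 215 CPM (SD, n = 3), a larger fall than that of the summed list, from 14701 to 10739 CPM. Of the 8 exocrine pancreas markers 3 to 5 were at 0 counts over a group, and PRSS1, a trypsinogen, made up nearly all of their summed level of 82.6 to 151 CPM with vehicle and 28.9 to 40.0 with DOX in QGP-1, and of 36.1 to 46.1 and 19.7 to 27.02 in BON-1. PRSS1 fell in both lines (-1.83, adjusted p = 4.68e-06, and -0.75, adjusted p = 1.67e-05).

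The 6 immune markers summed to 10.5 to 12.9 CPM with vehicle and 17.1 to 21.0 with DOX in QGP-1, mostly LYZ, and to 26.1 to 28.1 and 51.7 to 57.6 in BON-1, mostly CD68, which rose there (1.00, adjusted p = 4.33e-09). PTPRC, the marker of all leukocytes, had at most 9 counts in a library and CD3E at most 1. The 6 fibroblast markers summed to 1.81 to 3.66 CPM with vehicle and 1.14 to 1.32 with DOX in QGP-1, and to 5.22 to 6.65 and 10.7 to 11.6 in BON-1. The 4 endothelial markers summed to 0.972 to 1.39 CPM and 0.862 to 1.60 in QGP-1, and to 32.4 to 38.9 and 36.0 to 41.4 in BON-1, where KDR supplied most of the counts, at 34.1 ± 3.20 CPM with vehicle and 37.9 ± 2.65 with DOX (SD, n = 3), and CDH5 had at most 2. The part of these shifts in the Polycomb values was not tested.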

How the data were processed

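RNA-seq of 3 vehicle and 3 DOX cultures of QGP-1/tet-MUC1shRNA and of BON-1/tet-MUC1shRNA cells was analysed from the tables that the authors deposited. The authors prepared stranded mRNA libraries, aligned the reads to GRCh38 with STAR and deposited raw counts per gene for each line. They also deposited TPM values, which divide the counts by a gene length and scale each library to a fixed total. The counting program, its use of strand and its handling of reads that match several places are not given in the sources used here. RN7SK, RN7SL1 and RN7SL2 held 50.9% to 80.3% of the TPM and 1.35% to 6.38% of the counts of a library, so TPM was used only for shares and ratios among genes and, centred on each library's median, for an alternative. Each library was matched to its column by name, and 0 columns of sample values were left unused. No library was a copy of another replicate of its group (chi-square per gene of 5.92 to 29.7 between replicates). Libraries of different groups were not compared in this way.

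The test on counts was that of edgeR 4.0.16 under R 4.3.3 (default filter on low counts, TMM, quasi-likelihood fit, Benjamini-Hochberg adjustment over all genes tested). Each line was fitted alone, and the interaction of line and DOX and the vehicle comparison came from 1 fit of 12 libraries. Standard errors were derived from the log2 fold change and its F statistic, and a 95% interval is 1.96 standard errors either way. The code was tested on simulated counts. Ratios were compared by exact two-sided permutation tests. Depth makes counting error small except for genes with few counts, such as BMI1 in QGP-1. The edgeR p-values rest on the spread between cultures within the groups of a fit, drawn toward the spread of other genes. For the interaction and the vehicle comparison that spread came from all 12 libraries. No p-value here measures variation beyond that between these cultures.

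The members and gene lists were chosen with earlier results of these data known. The genes named are the 10 members, MUC1, and, from the lists of complexes and targets, genes called in both lines and the largest called change of each list in each line. MKI67, PCNA, CCNA2, E2F1, CHGA, CHGB, SYP and INSM1, and the 3 genes most correlated with EZH2, EZH1 and BMI1, are named as well. CDKN2A, CDKN2B, CBX8, PCGF2, COMMD3, SUZ12P1, TXLNG, SYNC, JARID2-AS1, NCAM1, UCHL1, SCG2, SCG3, SCGN, HOXB5, HOXB6, HOXB7 and the single markers of other cell types were added after their values were seen. Alternatives were DESeq2 1.42.0, limma 3.58.1 (voom, or on log2(TPM + 1), keeping mean TPM values from 1 upward), library size scaling, other filters on low counts (none, or 10 counts in every library), leaving out RN7SK, RN7SL1 and RN7SL2, both lines in 1 fit, vehicle libraries alone, the replicate number as a block, a minimum absolute log2 fold change of 0.5, and leaving out each library in turn. Gene positions are from GENCODE (GRCh38) and start regions from RefSeq (GRCh38.p14). No protein sequences were used here.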

Additional observations from a re-analysis of the deposited data

Results flagged for a closer look

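EZH1 and CBX2 were singled out because the test of the interaction called their DOX responses different between BON-1 and QGP-1 cells. The EZH1 response was 0.56 higher in BON-1 on the log2 scale (SE 0.17, edgeR adjusted p = 0.0285), with all 3 BON-1 DOX libraries above all 3 vehicle libraries and overlapping groups in QGP-1. With 1 library left out at a time it was called in 5 of 12 fits, with values from 0.48 to 0.65. The CBX2 response was lower in BON-1, with a difference of -0.62 (SE 0.16, adjusted p = 0.00770), and its groups did not overlap in either line. Groups did not overlap for 46.7% of all genes tested in QGP-1 and for 46.3% in BON-1. The CBX2 difference was called in 12 of 12 fits with 1 library left out, from -0.75 to -0.52. Such fits reuse the libraries by which both genes were singled out. The causes of these differences were not tested.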

How the results depend on the processing

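No value reversed its direction while called. A minimum absolute log2 fold change of 0.5 left 0 members higher in QGP-1, and 1 lower and 1 higher in BON-1. Over all genes it left 1296 lower and 790 higher in QGP-1, and 1419 lower and 1059 higher in BON-1. For the difference of responses it left 851 genes lower and 1054 higher, with CBX2 (-0.62) and EZH1 (0.56) among them. By limma on centred TPM, 1 member was higher in QGP-1 (CBX2 lost, 0.21) and 1 lower in BON-1 (BMI1 and CBX2 lost). With both lines in 1 fit, 1 member was higher in QGP-1. With library size scaling, 1 member was higher in BON-1 and 0 for the difference of responses. Leaving out 1 library in turn gave 1 to 2 members higher and 0 to 2 lower in QGP-1, 1 to 2 higher in BON-1, and 0 to 1 higher for the difference. The replicate block gave 1 member lower in QGP-1 (RBBP7, -0.20, adjusted p = 0.0376) and changed no other member's call. Same-numbered samples did not deviate together (r from -0.07 to 0.12, beside -0.28 to 0.18 for other pairs), and the main fits did not pair them. With so few libraries this check cannot show whether same-numbered cultures were handled together. EED between the lines was called with no filter on low counts (-0.24, adjusted p = 0.0481).

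The split of all genes moved with scaling. In QGP-1 it was 2676 lower and 2610 higher, against 3033 and 1886 on centred TPM. For the difference of responses it was 1315 lower and 1461 higher, against 1823 and 1123 with library size scaling, 1234 and 2139 on centred TPM, and 1700 and 1230 without QGP-1 DOX replicate 1. Library size scaling moved the all-gene median of the vehicle comparison from 0.02 to 0.13. BMI1 in QGP-1, with 21 to 75 counts, is the member most limited by depth.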
